A study of Mus musculus with 19 samples.

Results

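Genome-wide SOX3 binding sites of mouse glial progenitor cells (GPC), mapped by chromatin immunoprecipitation and sequencing (ChIP-seq), are described here from all 1367 peaks of the deposited SOX3 list. They make up 1367 of 18474 peaks in the 3 factor lists of the series, beside 2943 for SOX9 and 14164 for NFIA. The 2 SOX3 ChIP samples contributed 1 list, so no peak can be compared between replicates. The GPC came from embryonic stem cells (ESC) driven towards neural fate with all-trans retinoic acid at 0.1 µM in N2B27 medium, sorted on day 8 with magnetic beads against the A2B5 antigen, and grown on fibronectin with EGF and FGF2 at 10 ng/ml. Expression came from RNA sequencing of 4 libraries of GPC and 3 of glial cells (glia), in RPKM, which are read counts scaled to gene length and library size. The glia libraries carry the same growth text in the labels, which does not say how glia were made. No genotype, ESC line or number of separate cultures is stated either, and p-values then measure the spread between these libraries, which may be technical.

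SOX3 is a SOXB-type transcription factor, with an HMG box that bends DNA at short sites with a core such as ACAAAG or ACAATG. With its close relative SOX2 it is known for holding neural progenitors in a dividing, undifferentiated state, and SOX proteins often bind next to a partner such as a POU factor. SOX9, a SOXE-type factor, and NFIA, a nuclear factor I protein, are known for starting glial development.

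Few SOX3 peaks lay at promoters, and those few give a direct view of the DNA. In 14 peaks the deposited distance to the transcription start site (TSS) fell between 250 bases upstream and 50 bases downstream. RefSeq (GRCm38.p6) had promoter sequences for 13 of these 14 genes, and 6 had a single start. The 5 of these that were also in the expression table are shown, 5′ to 3′ from 250 bases before to 50 after the RefSeq start, with SOX cores in capitals (ACAAAG or ACAATG on either strand). Peak coordinates are in mm9 and promoter coordinates in GRCm38.p6, so the exact place of a peak within these letters is not known.
Acot1: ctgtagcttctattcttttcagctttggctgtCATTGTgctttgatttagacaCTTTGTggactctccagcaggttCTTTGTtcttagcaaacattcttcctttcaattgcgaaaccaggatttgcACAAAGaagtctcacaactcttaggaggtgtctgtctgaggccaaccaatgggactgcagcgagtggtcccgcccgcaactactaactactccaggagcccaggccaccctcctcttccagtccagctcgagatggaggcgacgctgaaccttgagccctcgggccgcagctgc
Sfpq: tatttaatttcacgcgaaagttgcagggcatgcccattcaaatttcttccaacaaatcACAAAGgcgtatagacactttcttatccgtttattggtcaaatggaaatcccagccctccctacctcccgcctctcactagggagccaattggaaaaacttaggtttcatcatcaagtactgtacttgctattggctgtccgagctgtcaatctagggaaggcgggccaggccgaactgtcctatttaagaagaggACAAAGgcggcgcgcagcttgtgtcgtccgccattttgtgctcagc
Wbp1: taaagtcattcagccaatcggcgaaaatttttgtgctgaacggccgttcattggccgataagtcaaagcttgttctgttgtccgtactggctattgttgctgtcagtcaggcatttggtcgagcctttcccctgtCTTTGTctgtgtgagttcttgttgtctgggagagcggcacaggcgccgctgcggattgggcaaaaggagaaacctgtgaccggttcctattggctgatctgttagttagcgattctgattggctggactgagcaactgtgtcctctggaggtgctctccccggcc
Ptma: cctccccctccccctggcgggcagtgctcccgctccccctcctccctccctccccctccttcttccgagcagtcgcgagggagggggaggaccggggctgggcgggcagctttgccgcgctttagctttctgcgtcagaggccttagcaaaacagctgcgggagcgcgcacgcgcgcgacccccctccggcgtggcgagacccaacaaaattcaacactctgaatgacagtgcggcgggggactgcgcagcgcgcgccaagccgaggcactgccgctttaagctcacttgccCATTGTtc
Mlc1: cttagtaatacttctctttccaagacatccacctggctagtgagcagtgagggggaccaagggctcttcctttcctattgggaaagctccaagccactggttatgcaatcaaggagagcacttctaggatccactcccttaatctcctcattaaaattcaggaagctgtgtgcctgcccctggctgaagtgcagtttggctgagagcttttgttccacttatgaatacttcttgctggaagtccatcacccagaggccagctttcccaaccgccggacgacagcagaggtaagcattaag
Acot1, an acyl-CoA thioesterase gene whose reads may be shared with close copies, had a peak at chr12:85350104-85350412, midpoint 194 bases upstream, that also overlapped a SOX9 peak. Its promoter (chr12:84009252-84009551, plus strand) held 4 cores, beginning 218, 197, 174 and 124 bases before the start. Sfpq, a nuclear RNA-binding protein gene, had a peak at chr4:126698510-126698653, midpoint 13 bases downstream, and its promoter (chr4:127021051-127021350, plus strand) held 2 cores, 1 of them beginning 4 bases after the start. In Wbp1, which encodes a WW domain binding protein, its only core began 115 bases before the start (chr6:83121412-83121711, minus strand) and the peak (chr6:83071563-83071707) was centred 82 bases upstream. Ptma, the prothymosin alpha gene, had 1 core 42 bases after the start (chr1:86526307-86526606, plus strand) and a peak at chr1:88423064-88423237, 161 bases upstream. Mlc1, an astrocyte membrane protein gene, had no core in this window (chr15:88978504-88978803, minus strand), while its peak at chr15:88809351-88809686 was 81 bases upstream. So 4 of these 5 promoters held a core, against 28.4% of 32544 RefSeq promoter sequences of the same length (18.7% for ACAAAG and 12.4% for ACAATG). If the deposited distance is counted from the RefSeq start, which may not be the start the authors used, the peak itself spanned all 4 cores of Acot1, 1 of the 2 of Sfpq and that of Wbp1. The peak of Ptma then ended 74 bases before the start, so its core lay outside the peak. None of the 5 held TTTGCAT, a POU site found in 4.65% of promoters, or TTGGCA, the motif of 1 NFI subunit, found in 14.1%, on either strand. A match is a description of the letters and not a binding site.

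Some markers of glial progenitors were abundant in GPC and others were low, and markers of some other cell types were present too. Olig2, a factor of glial progenitors, stood at 534 ± 28.7 RPKM in GPC and Nes, the progenitor intermediate filament, at 132 ± 5.77 RPKM. The glial progenitor markers Cspg4 and Pdgfra were lower, at 5.98 ± 1.65 RPKM and 20.7 ± 2.99 RPKM. Pdgfra was higher in glia, at 53.6 ± 4.61 RPKM. At 1 RPKM or more in GPC were 17 of 21 neural progenitor, 19 of 20 oligodendrocyte precursor, 2 of 12 pluripotent, 2 of 11 microglia, 2 of 10 endothelium, 14 of 15 mesenchyme, 27 of 29 astrocyte, 14 of 22 neuronal and 10 of 20 maturing oligodendrocyte markers. Col1a1, a collagen gene of mesenchyme, stood at 51.3 ± 8.95 RPKM, and Gfap, the astrocyte filament gene, at 8.37 ± 4.702 RPKM. Pou5f1 of pluripotent cells was listed at 0, and Aif1 of microglia and Pecam1 of endothelium did not exceed 0.0437 and 0.188 RPKM. Reads in genes ran from 12836998 to 22439837 in GPC and from 6897294 to 17369367 in glia. GPC replicate 3, the deepest library, stood apart, with summed astrocyte markers of 4664 RPKM against 3387 to 3466 RPKM in the other GPC libraries, and glia at 15707 to 19344 RPKM. Summed mesenchyme markers were also higher in glia, at 797 to 983 RPKM against 217 to 234 RPKM in GPC. Such differences move with the GPC and glia comparisons, their part in them was not tested, and in bulk RNA fewer cells of a type and less RNA per cell cannot be told apart. Glia were compared with GPC in an edgeR quasi-likelihood fit, p-values being Benjamini-Hochberg adjusted over 13588 genes, and a positive log2 change means higher in glia.

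Peaks were 57 to 1650 bp wide with a median of 167 bp, and they were spread over the autosomes with a few dense runs. Divided into bins of 1 Mb, 601 bins held 1 peak and 186 held 2, and 3 bins held 20 or more. These 3 bins, a cut chosen after the counts were seen, held 84 peaks. On chromosome 12 the bin from 116000001 to 117000000 held 23 SOX3 peaks, all assigned to the immunoglobulin segment Ighv1-73, with 2 SOX9 and 22 NFIA peaks. On chromosome 4 the bins from 145000001 to 146000000 and from 146000001 to 147000000 held 36 and 25 SOX3 peaks near predicted genes such as Gm13225 and Gm13152, with 1 and 0 SOX9 peaks and 84 and 107 NFIA peaks. The widest peak of all, 1650 bp at chr4:146899743-146901392 near Gm16503, was among them. None of these 84 peaks overlapped a SOX9 peak, and none of their 7 genes in the expression table reached 1 RPKM in GPC or enough reads for testing. Results are given with all peaks, and the main values are also given without these bins. The X chromosome carried 3 SOX3 peaks (0.219% of the list), against 68 SOX9 peaks (2.31%) and 1055 NFIA peaks (7.45%). They were assigned to Il1rapl1, Pja1 and Nhs, at 877.3 kb, 15.01 kb and 72.1 kb downstream of the TSS.

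SOX3 peaks lay mostly far from gene starts. The median distance to the assigned TSS was 53.6 kb (54.2 kb without the dense bins), with the middle 50% of peaks between 17.4 and 144.6 kb and the farthest at 1911 kb, from the cell adhesion gene Cntnap5b. Within 1 kb of the TSS were 33 peaks (2.41%), 10 of them within 100 bp. Another 184 peaks (13.5%) lay 1 to 10 kb away, 687 (50.3%) at 10 to 100 kb and 463 (33.9%) beyond 100 kb. The SOX9 list had 8.12%, 13.1%, 46.7% and 32.1% in the same classes. Whether this difference between lists exceeds replicate spread cannot be tested with 1 list each. Upstream peaks numbered 586 (42.9%) and downstream ones, within or past the gene body, 781.

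**Figure D1:**
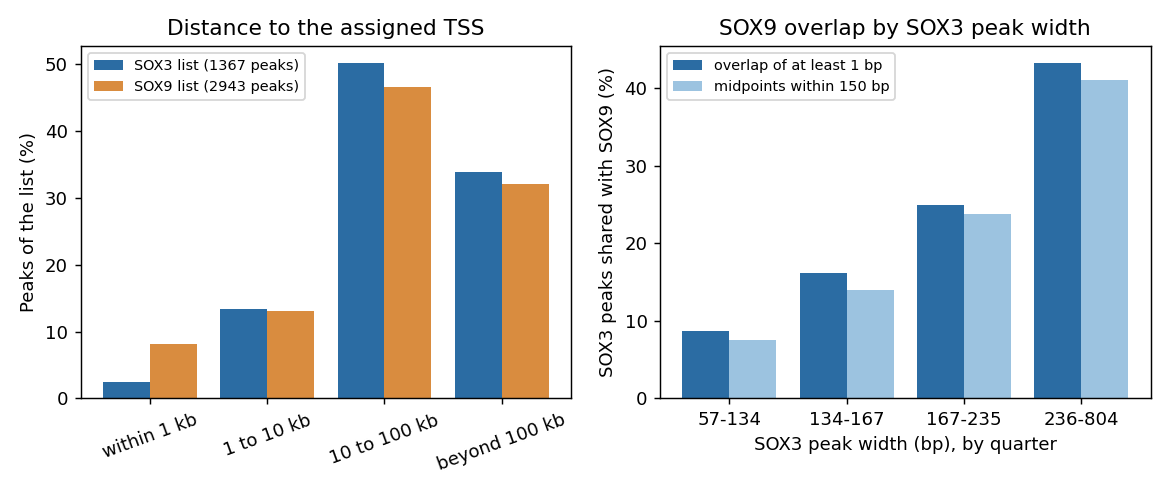
Left, the share of each list's peaks (y axis, percent) in 4 classes of distance to the assigned TSS for SOX3 and SOX9, with 2.41% of SOX3 and 8.12% of SOX9 peaks within 1 kb. Right, the share of SOX3 peaks outside the 3 dense bins that coincide with a SOX9 peak (y axis, percent) in 4 equal classes of SOX3 peak width (x axis, bp), by an overlap of at least 1 bp or by midpoints within 150 bp, rising from 8.72% to 43.3% by the first measure.

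A minority of the SOX3 sites was shared with SOX9, and fewer with NFIA. By an overlap of at least 1 bp, 299 SOX3 peaks (21.9%, or 23.3% of the 1283 outside the dense bins) coincided with a SOX9 peak, which were 318 SOX9 peaks (10.8% of that list). NFIA peaks coincided with 101 SOX3 peaks (7.39%, or 95 and 7.40% outside those bins), which were 98 NFIA peaks (0.692% of that list). Both factors met at 34 SOX3 peaks, and 1001 (73.2%, or 71.9% outside the bins) overlapped neither. In every one of the 299 peaks shared with SOX9 the authors' 2 lists named the same gene, taking the first overlapping SOX9 peak. Overlapping peaks lie at nearly the same position, so this only checks the gene assignment. By distance, SOX9 overlapped 15.2% of the 33 SOX3 peaks within 1 kb, 22.8% at 1 to 10 kb, 22.0% at 10 to 100 kb and 21.8% beyond 100 kb. For NFIA these shares were 12.1%, 7.61%, 5.97% and 9.07%.

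Wider SOX3 peaks coincided with SOX9 more often. Peaks shared with SOX9 had a median width of 224 bp and the others 158 bp. Outside the 3 dense bins, SOX9 overlapped 28 of 321 peaks (8.72%) in the narrowest of 4 equal width classes, 52 of 321 (16.2%) and 80 of 320 (25%) in the middle classes and 139 of 321 (43.3%) in the widest, of 236 to 804 bp. A wide peak overlaps more easily, and with midpoints within 150 bp of each other the shares were 7.48%, 14.02%, 23.8% and 41.1%. NFIA overlap was 6.23%, 5.30%, 10.0% and 8.10% in the same classes. The deposited SOX3 list carries no height or score, so width is the only measure of a peak's size in it.

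The 1367 peaks were assigned to 1069 genes, of which 898 had 1 peak, 127 had 2 and 44 had 3 or more. Of these genes 1002 were found among the expression data. Ighv1-73 had most peaks, 27, and Gm13225 had 11, and neither was among the expression data. Of the matched genes those with most peaks had little or no RNA in GPC, and several lay in the dense bins. Gm13152 had 14 peaks, Gm13212 and Gm13247 had 9 each, and the highest value of these 3 in any GPC library was 0.178 RPKM. Adam6a had 9 peaks within the immunoglobulin heavy chain locus, outside the dense bins. It was listed at 0 in all GPC libraries, as were Itln1 and Prl2c3 (5 peaks each). St6galnac1, a sialyltransferase gene with 8 peaks on chromosome 11, reached 0.104 RPKM at most. Those 8 peaks lay from 30.5 to 10.04 kb downstream of its start. Hdgfl1, with 4 peaks that were all shared with SOX9, reached 0.0778 RPKM. Without the 3 bins, 161 genes had 2 or more peaks in place of 171, and with peaks within 1000 bp counted once 146 had.

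Among genes with more RNA, Rgma, Slc1a3, Ndn, Stard13 and Efna5 had most peaks. Rgma, a membrane-bound guidance molecule and BMP co-receptor, had 5 peaks from 317.2 to 72.8 kb upstream, 4 of them shared with SOX9, such as chr7:80329998-80330491. Of these 4 shared peaks 2 were close neighbours, 178.5 and 178.4 kb upstream, and may be 1 site. Its level was 132, 118, 194 and 126 RPKM in the GPC libraries against 225, 187 and 239 RPKM in the glia libraries. The highest GPC value, in replicate 3, lay above the lowest glia value, and the log2 change of 0.58 ± 0.18 (SE, adjusted p = 0.0183) lost its call without glia replicate 1 (adjusted p = 0.0551) or 3 (0.0774). Slc1a3, the glutamate transporter of radial glia and astrocytes, had 4 peaks on both sides of its start, at chr15:8609660-8609926, chr15:8694923-8695101, chr15:8754748-8755079 and chr15:8765419-8765535, the first shared with SOX9. It measured 293, 306, 297 and 306 RPKM in the GPC libraries against 185, 193 and 168 RPKM in the glia libraries, without overlap between the groups, and fell in glia (log2 change -0.75 ± 0.07 SE, adjusted p = 3.62e-06). Ndn, the necdin gene of postmitotic neurons, had 4 peaks from 608.0 to 40.3 kb upstream, and rose from 109 ± 11.7 RPKM (SD, n = 4) in GPC to 148 ± 9.38 RPKM (n = 3) in glia. Stard13, a GTPase-activating protein gene, had 3 peaks 67.5 to 68.5 kb downstream and 1 upstream, shared with SOX9. The 3 downstream peaks were close neighbours and may be 1 site. The log2 change of Stard13, 0.21 ± 0.15 (SE, adjusted p = 0.235), did not pass the test. Efna5, an ephrin ligand gene, had 4 peaks, with a largest deposited distance of 1359.3 kb. The distances of these peaks do not all imply the same start of the gene. Efna5 was at a low level of 0.883 ± 0.312 RPKM for GPC and 1.61 ± 0.246 RPKM for glia. It rose by 0.78 ± 0.25 (SE, adjusted p = 0.0155) on the log2 scale, a call lost without glia replicate 2 (adjusted p = 0.0548).

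Genes with SOX3 peaks were more often active in GPC than the average gene, as were genes with SOX9 peaks. Their median GPC level was 8.56 RPKM over 1002 genes (8.54, 8.81, 8.61 and 8.51 RPKM in replicates 1 to 4), against 1.52 RPKM over all 22958 genes of the table. Without the genes of the dense bins it was 8.76 RPKM, and 71.7% of the genes were at 1 RPKM or more. At 1 RPKM or more were 713 target genes (71.2%), against 52.4% of all genes, and at 50 RPKM or more 151 (15.1%), against 8.92%. Still, 84 target genes were listed at 0 in all 4 GPC libraries. The median was 18.99 RPKM for the 29 genes with a peak within 1 kb, 10.1 RPKM for the 154 whose nearest peak was 1 to 10 kb away, 9.81 RPKM for 527 at 10 to 100 kb and 6.43 RPKM for 292 beyond 100 kb. Genes with a peak shared with SOX9 had a median of 13.4 RPKM (260 genes) and the other 742 a median of 7.11 RPKM. For the 460 genes that also had a SOX9 peak anywhere, shared or not, it was 10.9 RPKM. These genes were 45.9% of the SOX3 targets and 22.4% of the 2051 SOX9 targets. All SOX9 targets had a median of 6.35 RPKM, with 67.0% at 1 RPKM or more. The 542 genes with a SOX3 peak and no SOX9 peak had 6.22 RPKM and 66.4%. Genes with 2 SOX3 peaks had a median of 11.5 RPKM (123 genes) and those with 1 a median of 8.56 RPKM (843 genes). With 3 or more it was 1.33 RPKM over 36 genes, or 4.59 RPKM over the 31 with no peak in the dense bins.

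**Figure D2:**
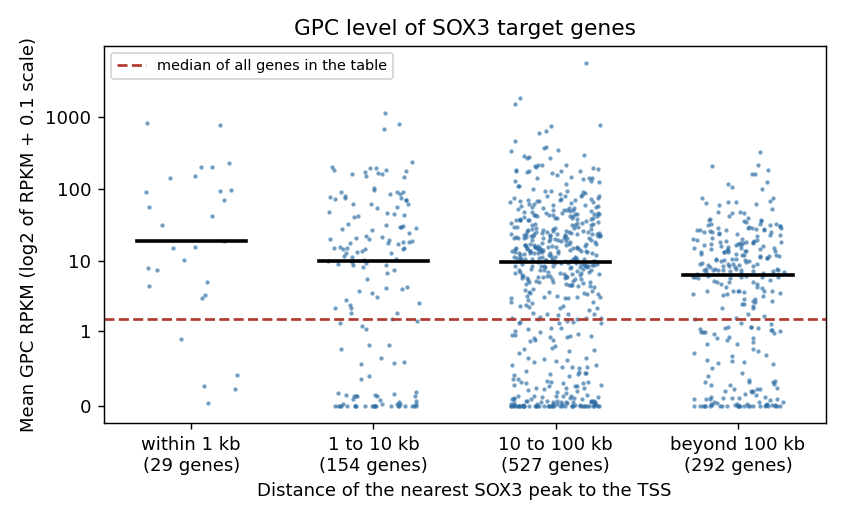
Mean GPC level of each SOX3 target gene (dots, y axis as log2 of RPKM + 0.1 with RPKM at the ticks) by distance of its nearest SOX3 peak (x axis). Black bars are medians, from 18.99 RPKM within 1 kb to 6.43 RPKM beyond 100 kb, and the dashed line is the median of all genes, 1.52 RPKM.

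The most abundant targets were Fabp7, Tuba1a, Scd2, Olig1, Ptma, Tuba1b, Fth1 and Cox8a, each with 1 peak. Fabp7, the brain fatty acid binding protein of radial glia, had its peak 40.6 kb upstream at chr10:57463979-57464101, shared with SOX9, and stood at 5529 ± 252 RPKM (SD, n = 4). Scd2, the fatty acid desaturase of brain, at 1479 ± 209 RPKM, whose log2 change of 0.23 ± 0.11 (SE, adjusted p = 0.0725) did not pass but did without GPC replicate 3 (adjusted p = 4.72e-05) or with at least 50 counts in 3 libraries (0.0496), also shared its peak with SOX9 (chr19:44386781-44386907), as did Olig1, a basic helix-loop-helix factor of the oligodendrocyte lineage, at 1110.3 ± 47.8 RPKM with a peak 6.80 kb upstream (chr16:91263075-91263345). The tubulin genes Tuba1a (1812 ± 53.1 RPKM) and Tuba1b (787 ± 136 RPKM), Ptma, the ferritin gene Fth1 and the respiratory chain gene Cox8a have close copies in the genome, so their reads may be shared. Within 1 kb of the TSS the abundant targets after Ptma and Cox8a were Laptm4a, a lysosomal membrane protein gene, Sfpq, Phpt1, a histidine phosphatase gene, Acot1, Rfx4, Mlc1, the mitochondrial glutamate carrier gene Slc25a18 and Wbp1, from 230.3 ± 17.6 RPKM down to 89.8 ± 7.71 RPKM. Rfx4, a winged-helix factor of neural progenitors, had a peak 98 bp upstream (chr10:84218656-84218763) and another 45.0 kb upstream (chr10:84173664-84173942) that was shared with SOX9. Its GPC libraries gave 143, 143, 132 and 145 RPKM, a narrow range.

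Neural progenitor markers were frequent among the SOX3 targets. Of 21 such genes, 11 had a SOX3 peak (52.4%), against 1002 of 22958 genes (4.36%) and 713 of the 12022 genes at 1 RPKM or more in GPC (5.93%). The SOX9 list also named 11 of the 21, against 8.93% of all genes. The 11 were Slc1a3, Sox2, Rfx4, Notch1, Fabp7, Ptprz1, Tnc, Cdh2, Msi2, Msi1 and Pax6, and 7 of them had a peak shared with SOX9. All 11 were tested between GPC and glia, where 35.2% of 13588 genes rose and 35.2% fell (70.4% either way) by edgeR's quasi-likelihood test (adjusted p below 0.05), and 8 fell and 3 rose, with a median log2 change of -0.75. Over all 20 tested progenitor markers 12 fell and 6 rose, with a median of -0.70.

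Sox2, which encodes the close relative of SOX3, had 3 peaks, 238.3 kb upstream (chr3:34310523-34310678, shared with SOX9), 90.8 kb upstream (chr3:34457954-34458337) and 3.96 kb downstream (chr3:34552792-34552973). It measured 141, 144, 163 and 153 RPKM in the GPC libraries against 186, 163 and 192 RPKM in the glia libraries. The groups overlapped, and the small log2 change of 0.24 ± 0.08 (SE, adjusted p = 0.0273) was lost in 5 of 7 fits that left out 1 library, as with glia replicate 3 left out (adjusted p = 0.109). Sox2 lies inside the noncoding gene Sox2ot, and reads of the pair may be mixed. Notch1, the receptor that maintains progenitors, had peaks 3.12 kb downstream (chr2:26356050-26356394) and 29.5 kb upstream (chr2:26388816-26388943), both shared with SOX9. With 47.6, 42.3, 36.1 and 44.9 RPKM in the GPC libraries against 24.5, 27.6 and 24.9 RPKM in the glia libraries it fell in glia without overlap (log2 change -0.77 ± 0.09 SE, adjusted p = 3.58e-05). Rfx4 fell by a like amount (-0.69 ± 0.06 SE, adjusted p = 4.55e-06), from 143, 143, 132 and 145 RPKM to 88.2, 93.4 and 87.4 RPKM. Fabp7 (log2 change -1.77 ± 0.07), the receptor phosphatase gene Ptprz1 (-0.90 ± 0.11) and Tnc, which encodes the matrix protein tenascin C (-3.77 ± 0.22), fell as well. The members that rose besides Sox2 were Msi1, an RNA-binding protein gene (0.64 ± 0.12), and the homeobox gene Pax6 (0.43 ± 0.09).

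**Figure D3:**
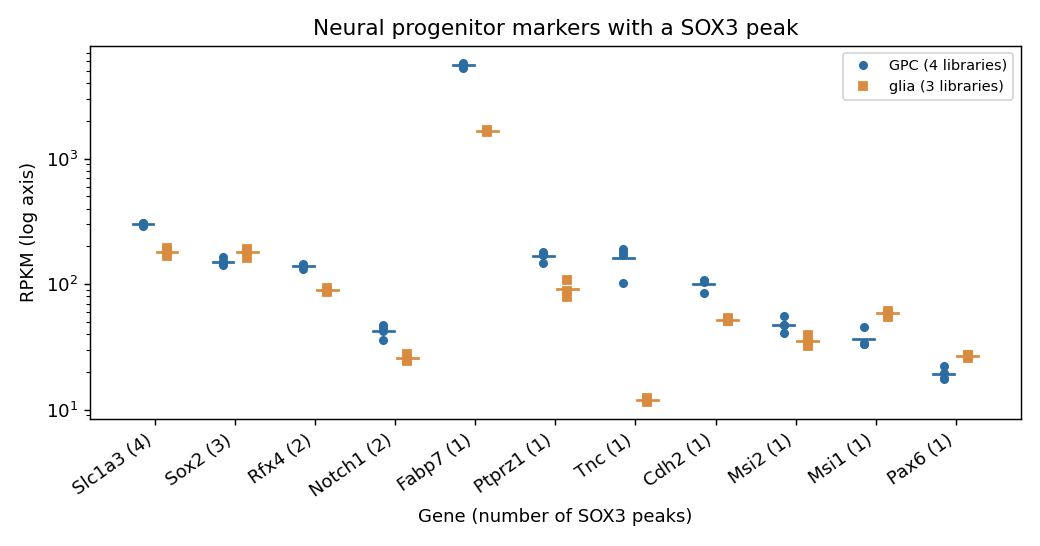
RPKM (log axis) of the 11 neural progenitor markers with a SOX3 peak, each dot 1 GPC library and each square 1 glia library, with bars at the group means and the number of SOX3 peaks in brackets. The GPC values lie above the glia values for 8 genes, among them Slc1a3, Rfx4, Notch1, Fabp7 and Tnc, and the groups overlap for Sox2.

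SOX and POU factor genes were themselves targets. Of 13 SOX genes 5 had SOX3 peaks (38.5%), namely Sox2, Sox6, Sox4, Sox21 and Sox5, and 7 had SOX9 peaks. No listed SOX3 peak was assigned to Sox3, Sox9 or Sox10, or to any of the 4 NFI genes, of which 2 had SOX9 peaks. For Sox3, which lies on the X chromosome, this says little, since only 3 peaks are listed there, the first starting at 84483695, and 189 peak numbers before it are not listed. Sox3 itself gave 72.3, 68.8, 122 and 66.6 RPKM in the GPC libraries against 41.7, 29.3 and 46.6 RPKM in the glia libraries, and fell (log2 change -1.09 ± 0.26 SE, adjusted p = 0.00638), and its highest library was GPC replicate 3. Sox6, a SOXD factor of the oligodendrocyte lineage, had 2 peaks, 493.4 and 273.1 kb downstream, and its log2 change of 0.21 ± 0.09 (SE, adjusted p = 0.057) did not pass. It passed without glia replicate 3 (adjusted p = 0.00737), with the replicate number as a block (0.0373) and with at least 50 counts in 3 libraries (0.0317). Sox4, a SOXC factor, had 1 peak 417.4 kb upstream, at 163 ± 34.6 RPKM for GPC and 171 ± 24.2 RPKM for glia, and did not pass (0.04 ± 0.17 SE, adjusted p = 0.827). Among 7 POU genes Pou3f3, a POU factor of neural progenitors, had 2 peaks, at chr1:42595807-42596123 and chr1:42685670-42685953. With 67.1, 66.2, 67.3 and 71.8 RPKM in the GPC libraries against 33.05, 30.5 and 37.8 RPKM in the glia libraries it fell without overlap (log2 change -1.04 ± 0.08 SE, adjusted p = 1.66e-06), and Pou2f1, with 1 peak, did not pass (-0.02 ± 0.16).

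Basic helix-loop-helix factors and their inhibitors gave 6 targets of 20 genes (30.0%), with 1 rising and 2 falling, against 4 and 6 of 15 tested in the whole list. Olig1 fell (-1.19 ± 0.12), and Id3, an inhibitor of these factors, did not pass (-0.36 ± 0.15 SE, adjusted p = 0.0565), though it did without GPC replicate 3 (adjusted p = 0.0041) or glia replicate 3 (0.0278) and by DESeq2 (0.0228). Id4, another inhibitor, was the member that rose, from 6.93 ± 3.06 RPKM to 220.3 ± 19.3 RPKM, and its peak at chr13:48419638-48419955, 63.0 kb downstream, was shared with SOX9.

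The 4 targets in the Notch list and the 5 in the FGF list fell in glia. Those in the Wnt, BMP and hedgehog lists did not fall as a group. Over all 13588 genes tested 35.2% fell and 35.2% rose, and 4.36% of all genes had a SOX3 peak. Of 25 Notch pathway genes 4 had SOX3 peaks (16.0%) and all 4 fell, where 13 of the 25 genes tested in the pathway fell and 6 rose. Besides Notch1 they were the co-activator gene Maml3 with 2 peaks (-0.87 ± 0.22, with GPC and glia values overlapping), Lfng, the glycosyltransferase that tunes Notch (-1.92 ± 0.08, peak 3.97 kb downstream), and the ligand gene Jag1. Of 19 genes of FGF signalling and its feedback 5 were targets (26.3%), and these 5 fell, with a median log2 change of -2.12, as 15 of the 18 tested genes of the list did (median -2.09). Etv5, an ETS factor induced by FGF, had a peak 10.7 kb downstream (chr16:22428995-22429228) shared with SOX9, and fell from 178 ± 26.98 RPKM in GPC to 14.1 ± 0.535 RPKM in glia (log2 change -3.68 ± 0.13 SE, adjusted p = 9.31e-09). The receptor genes Fgfr3 (-1.10 ± 0.14, peak 16.3 kb upstream) and Fgfr1 (-0.70 ± 0.06, peak 26.3 kb downstream) fell less, and Spred2 and Dusp4 were the other members.

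Of 34 Wnt pathway genes 9 were targets (26.5%), of which 4 rose and 3 fell, against 11 and 11 of 29 tested in the whole list. The transcription factor gene Tcf7l2 had 2 peaks, 185.4 and 148.4 kb upstream, and rose (0.41 ± 0.10), while the ligand gene Wnt7b, with a peak shared with SOX9 74.0 kb upstream, fell (-1.44 ± 0.10). Ctnnb1, the beta-catenin gene, did not pass (0.14 ± 0.06 SE, adjusted p = 0.0788), but did without GPC replicate 3 (adjusted p = 0.00932) or with at least 50 counts in 3 libraries (0.0339). Of 21 BMP and TGF-beta genes, of which 11 rose and 5 fell among 20 tested, 2 were targets, the receptor gene Tgfbr2 with 2 peaks, which did not pass (0.08 ± 0.14), and the inhibitor Smad6, which rose (0.92 ± 0.21) at a low level of 0.984 ± 0.272 RPKM for GPC and 1.94 ± 0.195 RPKM for glia. Of 10 hedgehog genes the co-receptor gene Boc (-0.17 ± 0.07) and the ligand gene Shh (0.50 ± 0.34) were targets and neither passed, where 1 rose and 4 fell of 9 tested. Boc passed without GPC replicate 2 (adjusted p = 0.0456) and Shh without GPC replicate 3 (adjusted p = 0.0399).

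Patterning genes gave 8 targets of 35 (22.9%), of which 3 rose and 3 fell, against 13 and 7 of 28 tested in the whole list. The homeobox gene Irx1 had 2 peaks, though these were neighbours 246.5 and 246.7 kb upstream. The homeobox gene Gbx2 was counted with 2 peaks, but the authors assigned 1 of them to D130058E05Rik, which RefSeq lists as a synonym of Gbx2. The deposited distances of these 2 peaks do not imply the same start, so only 1 is listed for Gbx2 itself. Irx1 rose (0.59 ± 0.11) and Gbx2 fell (-0.69 ± 0.10), both without overlap of the groups. Meis1, with 1 peak that overlapped NFIA, did not pass (-0.08 ± 0.07). Of 30 Hox genes, of which 5 rose and 14 fell among 24 tested, only Hoxb3 was a target, with a peak 258 bp upstream (chr11:96184241-96184524), and with 43.3, 41.7, 34.6 and 47.8 RPKM in the GPC libraries against 14.4, 14.3 and 14.04 RPKM in the glia libraries it fell (-1.61 ± 0.11 SE, adjusted p = 4.05e-07).

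Astrocyte and oligodendrocyte genes were targets in progenitors as well. Of 29 astrocyte markers 8 had a SOX3 peak (27.6%), and 5 of them rose in glia and 2 fell, against 21 and 6 in the whole list. Cst3, the cystatin C gene, had a peak 14.6 kb upstream (chr2:148715824-148716061) shared with SOX9, with 625, 593, 1155 and 602 RPKM in the GPC libraries against 3833, 3195 and 4370.2 RPKM in the glia libraries. Its highest GPC library was replicate 3, well below every glia library, and it rose by 2.32 ± 0.26 on the log2 scale. Mlc1, whose promoter is shown above, gave 95.5, 85.9, 125 and 82.9 RPKM in the GPC libraries against 320.3, 314 and 317 RPKM in the glia libraries, and rose (1.67 ± 0.13 SE, adjusted p = 2.82e-06). Sparcl1, a secreted glycoprotein gene with a peak shared with SOX9, rose from 195 ± 11.8 RPKM to 1045 ± 8.55 RPKM. The others were Slc1a3, Id3, Ttyh1, Fgfr3 and Hepacam. Of 20 oligodendrocyte precursor markers 4 were targets (Sox6, Olig1, Ptprz1 and Xylt1), of which 3 fell and 0 rose, while in the whole list 11 rose and 7 fell (median log2 change 0.54). Of 20 markers of maturing oligodendrocytes 2 were, the homeobox gene Nkx6-2 and the tight junction gene Cldn11, each with a peak shared with SOX9. Both rose, as did all 20 of that list. Cldn11 had its peak at chr3:31065399-31065636 and rose from 5.65 ± 0.988 RPKM to 93.5 ± 25.3 RPKM (4.00 ± 0.22 SE, adjusted p = 6.51e-07), and Nkx6-2 from 14.7 ± 1.15 RPKM to 58.2 ± 19.1 RPKM (2.00 ± 0.19).

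Adhesion and guidance genes gave the most targets by number, but theirs was also the longest list. By share, neural progenitor markers were higher, at 52.4%. Of 46 adhesion and guidance genes 21 had a SOX3 peak (45.7%, against 4.36% of all genes). A SOX9 peak was found for 29 (63.0%, against 8.93% of all genes), while 4 had a SOX3 peak that overlapped SOX9. In glia 11 of the 21 rose and 8 fell, against 24 and 15 of 45 tested in the whole list. Cdh11, a cadherin gene, had 2 peaks 58.3 and 42.9 kb downstream, both shared with SOX9, and rose from 15.01 ± 3.39 RPKM to 58.8 ± 4.23 RPKM (1.93 ± 0.15 SE, adjusted p = 3.89e-06). Plxna2, a semaphorin receptor gene with 2 peaks, fell (-1.01 ± 0.25 SE, adjusted p = 0.0073) with overlapping groups. Of 30 cell cycle genes 3 were targets, Ccnd2, Aurkb and Cdk6, and all 3 fell (Ccnd2 -2.44 ± 0.11, Aurkb -2.50 ± 0.08, Cdk6 -2.25 ± 0.24), as did all 30 of the list. Neuronal, mesenchyme, pluripotent and endothelial markers gave 2 of 22, 2 of 15, 1 of 12 and 1 of 10, and microglia markers 0 of 11. The neuronal pair was Nrxn3, a synaptic adhesion gene that rose (1.44 ± 0.24), and Gap43, an axon growth protein gene that did not pass (0.10 ± 0.07). In the whole neuronal list 12 rose and 3 fell of 20 tested. Dcn and Twist1 of mesenchyme rose (2.96 ± 0.14 and 1.19 ± 0.13), where 14 rose and 1 fell of 15 tested in that list. Kdr of endothelium rose (0.92 ± 0.19) from a low GPC level of 0.941 ± 0.110 RPKM. In the endothelium list 1 rose and 2 fell of 4 tested. Nanog was not tested, at no more than 0.492 RPKM in GPC.

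Peaks where SOX3, SOX9 and NFIA met were assigned to 33 genes of the expression table, with a median GPC level of 7.37 RPKM. The most abundant were Syt11, Fgfrl1, Slc27a1, Bag1, Aurkb, Ppp6r3, Abat and Magi1, from 185 ± 46.5 RPKM to 31.2 ± 2.04 RPKM. Aurkb, the mitotic kinase gene, had this peak 4.52 kb upstream (chr11:68854575-68854701) and gave 75.9, 74.3, 62.7 and 70.97 RPKM in the GPC libraries against 12.8, 12.99 and 12.7 RPKM in the glia libraries. The GABA transaminase gene Abat, with the triple peak at chr16:8523902-8524108, rose (1.86 ± 0.13 SE, adjusted p = 8.59e-07), and Fgfrl1, an FGF receptor-like gene (chr5:109126355-109126657), and Ppp6r3, a phosphatase subunit gene (chr19:3576207-3576369), fell (-0.67 ± 0.07 and -0.55 ± 0.07). Syt11, a synaptotagmin gene, did not pass (0.26 ± 0.17 SE, adjusted p = 0.184) but did without GPC replicate 3 (adjusted p = 5.72e-06). Bag1, a chaperone regulator gene, passed (0.27 ± 0.10 SE, adjusted p = 0.043) with overlapping groups, and lost its call in 5 of 7 fits that left out 1 library (adjusted p = 0.103 to 0.163), by DESeq2 (0.0575) and with no filter on low counts (0.0569). Slc27a1, a fatty acid transporter gene (-0.04 ± 0.09), and Magi1, a scaffold protein gene (0.06 ± 0.06), did not pass.

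As a whole the SOX3 targets changed between GPC and glia about as often as other genes. Of the 1002 target genes 789 had enough reads for testing, and 295 of these rose (37.4%) and 281 fell (35.6%), where 35.2% of all 13588 genes tested rose and 35.2% fell. The median log2 change was 0.03, and 0.00 over all genes tested. At 4-fold or more 60 targets rose (7.60%, against 6.98% of all genes tested) and 30 fell (3.802%, against 2.62%). GPC and glia values did not overlap in 558 of the 789 (70.7%), against 69.1%. Without GPC replicate 3, 326 targets rose and 303 fell, but the share of all genes called in that fit is not given for comparison. By distance of the nearest peak, 7 rose and 13 fell of 26 tested genes within 1 kb, 37 and 46 of 110 at 1 to 10 kb, 164 and 145 of 419 at 10 to 100 kb, and 87 and 77 of 234 beyond 100 kb. With a peak shared with SOX9, 74 rose and 87 fell of 220, and without one 221 rose and 194 fell of 569. These shares are descriptions, and no difference between the classes was tested.

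**Figure D4:**
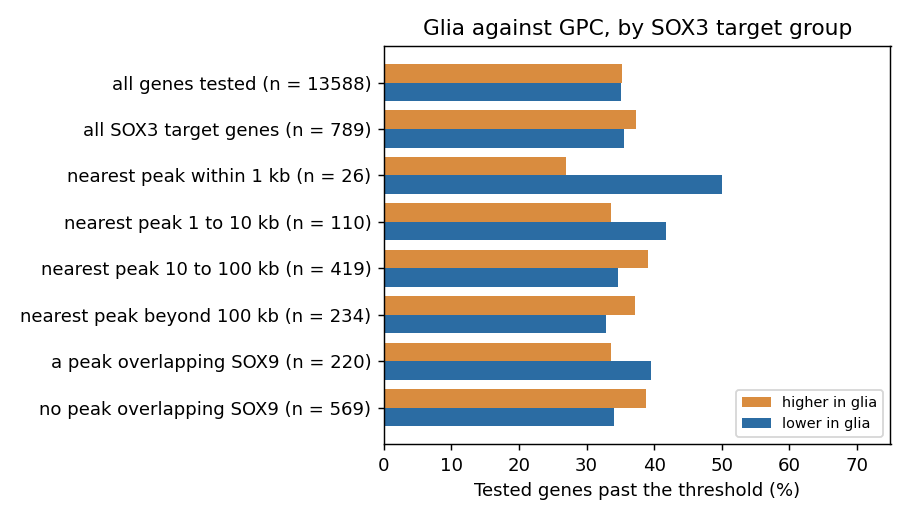
Share of tested genes (x axis, percent) higher or lower in glia than in GPC by edgeR at an adjusted p below 0.05, for all genes, all SOX3 targets and classes of targets (y axis, with the number tested). All targets together, at 37.4% and 35.6%, lie near the 35.2% of all genes in either direction, and the class within 1 kb, of 26 genes, has 7 higher and 13 lower.

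The targets that fell most were Hmga2, Fbln2, Lmcd1, Tnc, Etv5, Vav3, Sall3 and Mthfd1l, and each had 1 SOX3 peak. Hmga2, a chromatin protein of fetal progenitors, had its peak 99.0 kb downstream (chr10:119814479-119814602) and gave 41.3, 43.3, 39.6 and 46.7 RPKM in the GPC libraries against 0.9598, 0.6995 and 0.877 RPKM in the glia libraries (log2 change -5.63 ± 0.11 SE, adjusted p = 5e-10). Fbln2, an extracellular matrix protein gene, had a peak 89.6 kb downstream (chr6:91251910-91252219) shared with SOX9 and changed by -5.52 ± 0.08. Its groups were far apart, at 174, 168, 166 and 174 RPKM in the GPC libraries against 3.69, 3.64 and 3.92 RPKM in the glia libraries. Lmcd1, a LIM domain protein gene, changed by -4.41 ± 0.27, Vav3, a guanine nucleotide exchange factor gene, by -3.66 ± 0.20, Sall3, a zinc finger factor gene, by -2.74 ± 0.07 and Mthfd1l, a mitochondrial folate enzyme gene, by -2.63 ± 0.11. Of these 8 peaks those of Fbln2 and Etv5 overlapped SOX9 and none overlapped NFIA.

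Among the targets that rose most were Entpd2, Arsj, Thsd4, Slc44a3, Id4, 1190005I06Rik and Epha3, all at under 12 RPKM in every GPC library. Entpd2, an enzyme that breaks down extracellular ATP, had a SOX3 peak 865 bp upstream (chr2:25250439-25250619) and gave 0.1603, 0.0395, 0.367 and 0.119 RPKM in the GPC libraries against 27.6, 27.3 and 30.9 RPKM in the glia libraries. Its log2 change was 7.11 ± 0.25 (SE, adjusted p = 1.17e-08), or 7.99 without GPC replicate 3. Arsj, a sulfatase gene, had 1 read over all 4 GPC libraries, in replicate 3, and stayed below 0.5 RPKM in glia, so no fold is given for it. Thsd4, a matrix protein gene with a peak 199.2 kb downstream, changed by 5.41 ± 0.13, Slc44a3, a choline transporter-like gene, by 5.21 ± 0.27, 1190005I06Rik by 4.88 ± 0.22 and Epha3, an ephrin receptor gene, by 4.40 ± 0.22. The peaks of Arsj, Slc44a3 and Id4 overlapped SOX9.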

How the data were processed

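SOX3, SOX9 and NFIA ChIP-seq peak lists and RNA-seq counts and RPKM were analysed, as deposited by the authors. Coordinates are in mm9, the build the submitters' processing notes name. Peak names show MACS for SOX3 and MACS2 on merged libraries for SOX9, per the peak names in the deposited lists. The RPKM values were scaled by the authors to gene length and library reads, per the file headers. The read counts were deposited by the authors without normalization. The NFIA score was deposited by the authors and what it measures is not stated. The aligner, the counter and the rule that paired peaks with genes are not stated in the labels or headers. The 2 input and 3 H3K27Ac samples were not analysed here.

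Signed distances were checked against gene strand, and positive was downstream in 107 of 108 genes with several peaks, and 104 of 108 implied 1 TSS (tolerance 2 bp). Of 1367 peaks 1220 matched the expression table by symbol, 1 by a joined symbol, 26 by a RefSeq synonym (GRCm38.p6, names only) and 120 not at all. Overlap meant at least 1 bp. Glia were tested against GPC in edgeR 4.0.16 (R 4.3.3, TMM, filterByExpr, robust quasi-likelihood, two-sided, Benjamini-Hochberg over 13588 genes, threshold 0.05), and the script was tested on simulated data. Fold changes are log2 changes from that fit and SE is the change over the square root of F. Alternatives were DESeq2 1.42.0, other scalings and filters, each library left out, other overlap rules and the bins of at least 20 peaks left out, the last chosen after seeing the data.

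Genes were named by rule, as the factors, the 15 targets with most peaks, the 8 most abundant, the 8 rising and 8 falling most, the 10 most abundant within 1 kb, the 8 at triple peaks and the first 3 of each gene list, and fewer were printed. Some genes that meet these rules are not reported here. Others are named to complete a list and were named after their values were seen. Members and lists were chosen with earlier results of these data known.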

Additional observations from a re-analysis of the deposited data

Results flagged for a closer look

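In 15 of the 94 genes checked, GPC replicate 3 lay far from the other GPC libraries, and in Gm13212 it was GPC replicate 1, by a test for a single distant value that chance meets in about 5% of groups. GPC replicate 3 was high for Sox3 (121.9 RPKM), Sox9 (62.7), Nfia (15.8), Ndn (126 RPKM), Scd2 (1792), Id4 (11.5), Syt11 (255), Bag1 (86.6), Abat (47.0), Cst3 (1155), Nrxn3 (1.48) and Ccnd2 (234 RPKM). It was low for Vav3 (19.6 RPKM) and Plxna2 (7.85 RPKM). In Arsj (0.0120 RPKM) and Gm13212 (0.165 RPKM) the distant value was the only one above 0.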

How the results depend on the processing

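The counts of rising and falling targets stayed within 1.5 times under every alternative run, at 208 to 326 and 204 to 303. With the replicate block (GPC replicate 4 left out) they were 290.0 and 270.0. Deviations from the group means correlated weakly between libraries of the same number (-0.0202, 0.138 and 0.0684). With so few libraries this cannot show whether they were paired. Leaving out 1 library gave 275 to 326 rising and 252 to 303 falling. SOX9 overlap ran from 277 to 302 peaks and NFIA overlap from 73 to 142. Counting only peaks within 100 kb left 91 genes with several peaks in place of 171. The median GPC RPKM of SOX3 target genes was 7.66 with each peak counted once, 10.04 RPKM for targets within 100 kb, 8.76 RPKM without the dense bins, and 8.49 to 8.63 RPKM with 1 GPC library left out. The share at or above the threshold was 74.6% at 0.5 RPKM and 59.4% at 5 RPKM, 71.7% without the dense bins, and 71.1% to 71.6% with 1 GPC library left out.

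Over all alternatives for the named genes, 971 values kept direction and call, 18 lost the call, 13 gained it and 14 turned sign. The log2 changes of 6 named genes that did not pass turned sign under an alternative. With 1 library left out, Phpt1 ran from -0.018 to 0.11, Wbp1 from -0.20 to 0.024, Slc27a1 from -0.13 to 0.027, Sox4 from -0.040 to 0.21, Pou2f1 from -0.14 to 0.13 and Tgfbr2 from -0.067 to 0.23. With at least 50 counts in 3 libraries Slc27a1 was at 0.0012 and Pou2f1 at 0.021. The cause was not tested. With 1 list per factor and no score for SOX3, the depth behind a peak is unknown.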

Other observations

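The SOX3 peak names run to number 1819 while 1367 are listed, and the 452 unlisted numbers were not spread evenly. Most, 319, fell between the last listed peak of a chromosome and the first of the next in the file. The 3 longest runs held 284 of them, with 189 between the last peak on chromosome 9 (ending at 121269701) and the first on X (starting at 84483695), 67 between chromosome 8 and the first peak on chromosome 9 (starting at 7206484), and 28 between chromosome 10 and the first peak on chromosome 11 (starting at 7060772). The X chromosome, with 3 listed SOX3 peaks, follows the longest of these runs, and the labels do not say what the unlisted numbers were. For each SOX3 peak that overlapped NFIA the highest NFIA score was taken, and its median was 19, against 16 over all peaks of the NFIA list. Taking the highest score can only raise this median. It was 20 outside the 3 dense bins and 16.5 inside them.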
